A study of Mus musculus with 6 samples.

Results

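The imprinted genes Dlk1, Asb4, Peg3, Ndn, Snrpn, Nnat, Gnas, Grb10, Impact and Zdbf2, 10 of the 9583 genes in the table, were compared between cold-sensitive and cold-insensitive neurons of the mouse preoptic area (POA), the part of the hypothalamus that regulates body temperature. They were chosen as imprinted genes present in the table, and Dlk1 and Asb4 were selected from the comparison of cold-sensitive with cold-insensitive neurons because they ranked among its largest increases. The difference between the types is therefore given for these 10 genes as a description, with no test. Where Dlk1 or Asb4 is placed among the genes called, this describes the selection and lends no weight to the difference. Neurons of naive wild-type C57Bl/6J mice aged 6 to 14 weeks were acutely cultured at 34°C and cooled to about 10°C under calcium imaging. Cold-sensitive neurons were taken from the top 7% of response amplitudes and cold-insensitive neurons from the bottom 14%. Each of the 6 libraries held total RNA of a pool of about 100 to 200 single collected neurons, with 3 pools per type. By the study's methods, a replicate was collected over several mice and isolations, and coverslips gave neurons of either type, so each pool is a mixture of animals. All pools were of the same strain and untreated, and the types were told apart by their calcium response to cooling.

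Genomic imprinting silences one parental copy of a gene through methylation marks set in the egg or the sperm, so that the gene is expressed from the other copy. Many imprinted genes are active in the hypothalamus, and several act on growth, feeding and heat production. In mice the paternal copy is known to be expressed for Dlk1, Peg3, Ndn, Snrpn, Nnat, Impact and Zdbf2, and the maternal copy for Asb4. Grb10 is expressed from the paternal copy in neurons and from the maternal copy in most other tissues, and the copy used for Gnas depends on the transcript and the tissue. The alleles given throughout are this background. The mice were of one inbred strain and the values are counts per gene, so the parental origin of the RNA was not measured.

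The starts of 4 of the genes are shown because Dlk1 and Asb4 had the largest fold changes of the 10, Peg3 had similar fold changes in every replicate, and Zdbf2 alone held the motif searched. Each line is the 250 bases before a RefSeq start of GRCm38.p6 on the strand of the gene, with every CG, the dinucleotide that imprinting methylates, in capitals. The windows are chr12:109452573-109452822 (plus strand) for Dlk1, chr6:5383136-5383385 (plus strand) for the first start of Asb4, chr7:6730420-6730669 (minus strand) for Peg3 and chr1:63200108-63200357 (plus strand) for the upstream start of Zdbf2.
Dlk1: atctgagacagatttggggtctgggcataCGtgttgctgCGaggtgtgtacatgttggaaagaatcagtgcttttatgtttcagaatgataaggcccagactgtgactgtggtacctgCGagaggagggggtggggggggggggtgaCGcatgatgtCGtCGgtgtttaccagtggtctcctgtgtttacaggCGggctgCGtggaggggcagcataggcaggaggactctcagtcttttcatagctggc
Asb4: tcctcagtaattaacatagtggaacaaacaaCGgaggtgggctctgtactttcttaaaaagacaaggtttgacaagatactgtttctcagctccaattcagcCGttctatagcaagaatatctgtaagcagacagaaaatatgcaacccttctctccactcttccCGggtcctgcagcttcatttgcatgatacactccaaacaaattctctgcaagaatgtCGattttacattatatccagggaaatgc
Peg3: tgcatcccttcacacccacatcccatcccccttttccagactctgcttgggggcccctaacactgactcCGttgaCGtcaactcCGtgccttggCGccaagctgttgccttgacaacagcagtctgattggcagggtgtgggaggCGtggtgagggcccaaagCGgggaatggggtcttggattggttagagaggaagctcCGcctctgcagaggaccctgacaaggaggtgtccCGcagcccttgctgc
Zdbf2: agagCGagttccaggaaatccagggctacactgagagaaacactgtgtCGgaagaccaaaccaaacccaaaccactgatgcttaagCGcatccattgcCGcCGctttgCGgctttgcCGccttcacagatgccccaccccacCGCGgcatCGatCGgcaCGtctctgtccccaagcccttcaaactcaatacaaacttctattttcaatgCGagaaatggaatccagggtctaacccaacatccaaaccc

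These windows held 8 CG in Dlk1, 4 in Asb4, 8 in Peg3 and 13 in Zdbf2, against a median of 6 over 32851 windows of the same length. The second start of Asb4 held 8. The Grb10 and Gnas starts with the most CG held 40 and 29. Windows were found for 9 of the 10 genes, 18 in all. The hexamer TGCCGC, searched on both strands as the motif bound when methylated by ZFP57, a protein that maintains imprints, was found in 1 of these windows. It stood 3 times in the Zdbf2 window printed above, and 8.68% of all windows held it. A match is a description of the letters only, and methylation was not measured in these neurons.

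The libraries held 3316441 to 6818554 counts in cold-sensitive pools and 5276233 to 5712983 counts in cold-insensitive pools. Levels are normalized read counts (RPM, scaled to the effective library size), as deposited, and log2 fold changes are of cold-sensitive over cold-insensitive neurons with their standard error (SE). The table held no gene under 1 RPM in any library, so a gene silent in 1 type could not appear in it. Over all 9583 genes, 0.334% were called higher and 0.835% lower in cold-sensitive neurons at an adjusted p of at most 0.05 (edgeR's quasi-likelihood test, Benjamini-Hochberg). In 7.84% of genes every cold-sensitive pool lay above every cold-insensitive pool, and in 8.18% every one lay below. An unadjusted p under 0.05 was found for 1025 genes, or 10.7%. Of the defining markers of neurons, 5 of 5 were in the table. Snap25 alone of them had an unadjusted p under 0.05, and edgeR's quasi-likelihood test, DESeq2 and limma each called 0. Snap25, which drives vesicle fusion at synapses, had 1437, 1826 and 2383 RPM in cold-sensitive pools, against 1224, 975 and 1435 RPM in cold-insensitive pools (log2 fold change 0.64, adjusted p = 0.235). Syt1, its calcium sensor, had a log2 fold change of 0.20 (adjusted p = 0.849). Of the markers of astrocytes, microglia, endothelium and mural cells 0 were in the table.

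In 5 of the 10 imprinted genes, Dlk1, Asb4, Peg3, Impact and Zdbf2, the types did not overlap, all with cold-sensitive pools higher, a pattern found in 7.84% of all genes. Dlk1 and Asb4 were chosen by this comparison, so nothing is read from the count. The types overlapped in the other 5. The median log2 fold change was 0.28 over the 10 genes, with 6 of them above 0, and 0.20 over the 7 paternally expressed ones, with 4 above 0. Over all genes the median was 0.00. In pooled RNA, more cells that express a gene and more RNA of it per cell cannot be told apart.

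**Figure D1:**
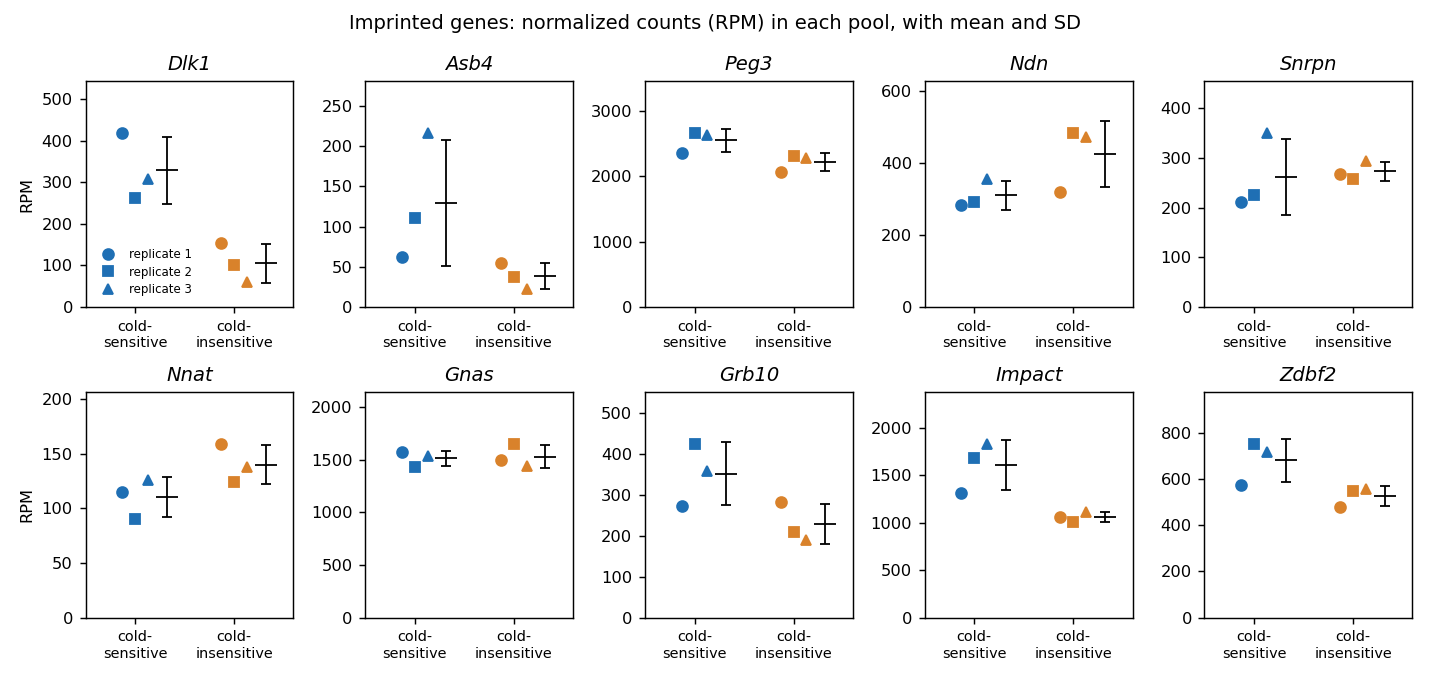
Normalized counts (RPM) of each imprinted gene in each pool, one panel per gene, with cold-sensitive pools in blue on the left and cold-insensitive pools in orange on the right. Symbols mark replicates and black bars the mean and SD of 3 pools. Dlk1, Asb4, Peg3, Impact and Zdbf2 are the panels in which no orange symbol reaches the lowest blue one.

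Dlk1 encodes a transmembrane protein of the Delta family that is best known from mouse fat cell precursors, where it holds back their differentiation. It lies at chr12:109452823-109463336 (GRCm38, plus strand), in the imprinted Dlk1-Dio3 domain. Dlk1 had 418, 261 and 308 RPM in cold-sensitive pools, against 153, 102 and 60.1 RPM in cold-insensitive pools. The lowest cold-sensitive pool stood above the highest cold-insensitive one, and each cold-sensitive pool had more Dlk1 than the cold-insensitive pool of the same replicate number. The means were 329 ± 80.9 RPM in cold-sensitive neurons and 105 ± 46.3 RPM in cold-insensitive neurons (SD, n = 3 each), a fold of 3.14 (log2 fold change 1.65, SE 0.29). Between pools of the same number the log2 difference was 1.46, 1.36 and 2.36. The labels number the replicates within each type and do not state that a number is shared between them, so all differences within replicates assume this pairing. The order by fold change among the 32 genes called higher put Dlk1 at 13, between Gabre (1.70), a GABA-A receptor subunit, and Rab27b (1.63), a small GTPase of vesicle transport. Over 15 alternative fits its log2 fold change was 1.37 to 2.02.

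Asb4 encodes a SOCS-box protein that recruits substrates to a cullin-5 ubiquitin ligase, and in mice its RNA is known from hypothalamic neurons. It lies at chr6:5383386-5433022 (GRCm38, plus strand), at the edge of the Peg10-Sgce domain. Asb4 had 62.6, 110 and 216 RPM in cold-sensitive pools, against 54.6, 37.1 and 22.9 RPM in cold-insensitive pools. The types did not overlap, but the lowest cold-sensitive and the highest cold-insensitive pool, both of replicate 1, were close. The means were 129 ± 78.3 RPM in cold-sensitive neurons and 38.2 ± 15.9 RPM in cold-insensitive neurons (SD, n = 3 each), a fold of 3.39 (log2 fold change 1.76, SE 0.41). Within replicates the log2 difference was 0.20, 1.56 and 3.23, so replicate 3 carried the widest gap and replicate 1 almost none. Asb4 stood at 10 of the 32 genes called higher, between Lrrcc1 (1.97), a centrosome protein, and Nrn1 (1.75), a membrane-anchored factor of neurite growth. Leaving out cold-sensitive replicate 3 gave the lowest log2 fold change, 1.17 (SE 0.46), and leaving out cold-insensitive replicate 1 the highest, 2.11 (SE 0.47). With the replicate number as a block it was 1.65 (SE 0.44), and Asb4 was then not among the genes called. It passed the threshold in 10 of 15 alternative fits, which is a description and no test, since this comparison selected Asb4.

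Dlk1 and Asb4 did not follow each other over the pools. The ratio of Dlk1 to Asb4 RPM was 6.68, 2.38 and 1.43 in cold-sensitive pools, against 2.8, 2.73 and 2.62 in cold-insensitive pools. It was thus nearly constant in cold-insensitive neurons, while cold-sensitive replicate 1 had the most Dlk1 and the least Asb4. A marker of another cell type also differed between pools. Mbp, a myelin protein of oligodendrocytes, had 416, 143 and 73.6 RPM in cold-sensitive pools, against 193, 48.4 and 16.1 RPM in cold-insensitive pools, highest in replicate 1 of each type, as was Dlk1. The types overlapped and Mbp was not called (log2 fold change 1.29, adjusted p = 0.382 by edgeR's quasi-likelihood test). Without cold-sensitive replicate 1, the pool richest in Mbp, the log2 fold change was 1.43 (SE 0.30) for Dlk1 and 2.08 (SE 0.38) for Asb4. Without cold-insensitive replicate 1, the richest of its type, it was 2.02 (SE 0.31) for Dlk1 and 2.11 (SE 0.47) for Asb4. Each of these fits kept the other Mbp-rich pool, and a part of oligodendrocyte RNA in the values of Dlk1 and Asb4 was not tested.

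**Figure D2:**
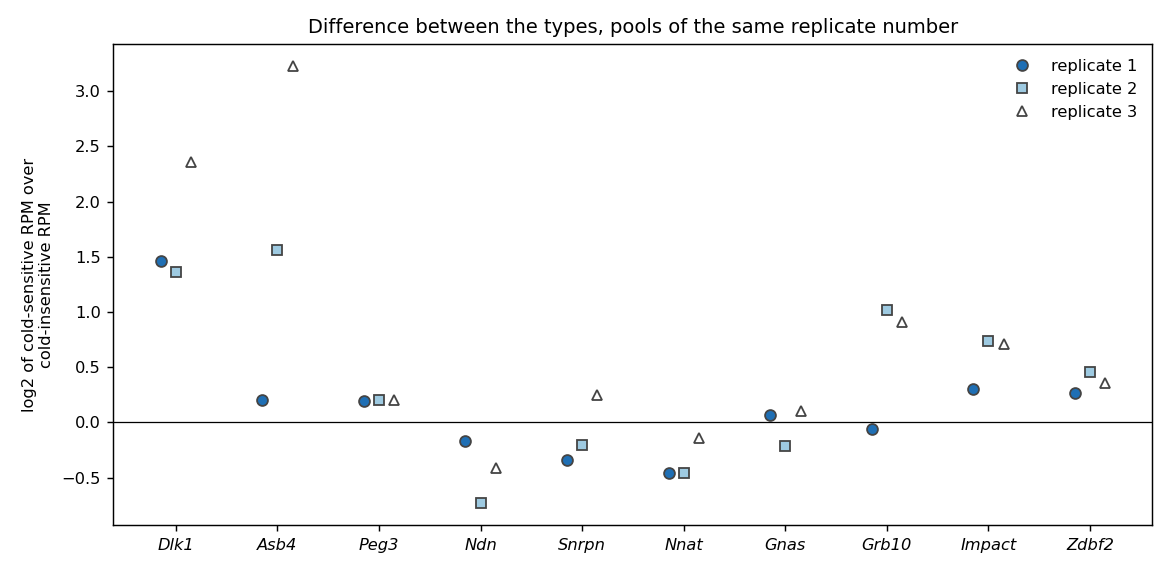
Log2 of the RPM in the cold-sensitive pool over that in the cold-insensitive pool, within each replicate (symbols), for each imprinted gene on the horizontal axis. All 3 symbols lie above 0 for Dlk1, Asb4, Peg3, Impact and Zdbf2, and all 3 lie below 0 for Ndn and Nnat; Asb4 spans 0.20 to 3.23.

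Of the intracellular signalling genes, Grb10 was higher in cold-sensitive neurons in 2 of 3 replicates and Gnas lay level. Grb10 encodes an adaptor that binds the insulin and IGF1 receptors and restrains them. Grb10 had 272, 425 and 359 RPM in cold-sensitive pools, against 283, 210 and 190 RPM in cold-insensitive pools. The types overlapped through replicate 1 alone, in which the cold-insensitive pool was slightly higher (log2 difference -0.06), while replicates 2 and 3 differed by 1.02 and 0.91. Its means were 352 ± 76.8 RPM in cold-sensitive neurons and 228 ± 48.9 RPM in cold-insensitive neurons (SD, n = 3 each; log2 fold change 0.63, SE 0.24). Gnas encodes the stimulatory G protein alpha subunit that couples receptors to cyclic AMP production, along with larger and neuroendocrine variants from other starts. Gnas had 1571, 1432 and 1540 RPM in cold-sensitive pools, against 1498, 1651 and 1439 RPM in cold-insensitive pools. The pools of both types lay in the same range (log2 fold change -0.01, SE 0.20). Counts were per gene, so the transcripts that differ in imprinting were added together. Gnas exons also overlap Gm20721 on the opposite strand, and the counting ignored strand.

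Impact, which restrains the stress kinase GCN2 by competing for its partner GCN1 and so favours translation in neurons, was the most abundant of the 10 per length. Impact had 1313, 1682 and 1829 RPM in cold-sensitive pools, against 1064, 1004 and 1116 RPM in cold-insensitive pools. The types did not overlap, and the cold-insensitive pools lay close together. Its means were 1608 ± 266 RPM in cold-sensitive neurons and 1061 ± 56.2 RPM in cold-insensitive neurons (SD, n = 3 each; log2 fold change 0.60, SE 0.20), and the alternative fits gave 0.49 to 0.72.

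The zinc finger genes Peg3 and Zdbf2 differed less, with the same direction in every replicate. Peg3 encodes a large DNA-binding protein studied in mice for its part in maternal behaviour, and lies at chr7:6703892-6730431 (minus strand). Peg3 had 2356, 2663 and 2637 RPM in cold-sensitive pools, against 2062, 2319 and 2289 RPM in cold-insensitive pools. Both types were lowest in replicate 1, so that the log2 difference was 0.19, 0.20 and 0.20 within replicates, the narrowest spread of the 10 genes. The fitted log2 fold change was 0.20 with an SE of 0.20, as large as the difference itself. That SE was derived from the F statistic of the fit and does not measure the spread within replicates. Zdbf2, a paternally expressed gene at chr1:63273265-63314576 (plus strand), had 576, 752 and 716 RPM in cold-sensitive pools, against 478, 547 and 556 RPM in cold-insensitive pools. Here, too, the types did not overlap (log2 fold change 0.37, SE 0.21).

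Ndn, Snrpn and Nnat, all paternally expressed, were not higher in cold-sensitive neurons. Ndn encodes necdin, a MAGE-family protein of neurons from the region deleted in Prader-Willi syndrome. Ndn had 284, 292 and 356 RPM in cold-sensitive pools, against 320, 483 and 472 RPM in cold-insensitive pools. Within replicates the cold-insensitive pool was higher each time, although the types overlapped (log2 fold change -0.45, SE 0.22). Snrpn encodes the neuronal splicing protein SmN of the same region. Snrpn had 211, 225 and 350 RPM in cold-sensitive pools, against 267, 258 and 294 RPM in cold-insensitive pools. Cold-sensitive replicate 3 lay above the other 5 pools. The log2 fold change was -0.06 (SE 0.24), with -0.33 without that pool, and 0.07 and 0.04 without cold-sensitive replicates 1 and 2. Snrpn shares exons on its strand with Snurf and Gm38393, so its count is uncertain. Gm38393 itself overlapped between the types (log2 fold change 0.49, adjusted p = 0.657). Nnat encodes neuronatin, a small membrane protein of the endoplasmic reticulum. Nnat had 115, 90 and 126 RPM in cold-sensitive pools, against 159, 124 and 138 RPM in cold-insensitive pools, and every replicate was lower in cold-sensitive neurons (log2 fold change -0.35, SE 0.27).

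Summed over the 10 genes, the level was 7180, 7931 and 8434 RPM in cold-sensitive pools, against 6337, 6735 and 6579 RPM in cold-insensitive pools. The sums did not overlap, with 7848 ± 631 RPM in cold-sensitive neurons and 6550 ± 200 RPM in cold-insensitive neurons (SD, n = 3 each). Dlk1 and Asb4 made up a small part of the sums and a larger part of the difference between them. Without these genes the sums were 6699, 7561 and 7911 RPM in cold-sensitive pools, against 6130, 6596 and 6496 RPM in cold-insensitive pools, still without overlap. Peg3, Gnas and Impact had the most counts of the rest, so the sums weigh these genes most and do not show a rise shared by all. Peg3 (2552 against 2223 RPM) and Impact (1608 against 1061 RPM) had higher means in cold-sensitive neurons, as had Grb10 and Zdbf2. Gnas, Ndn, Snrpn and Nnat did not.

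Per kilobase of exon, the order in cold-sensitive neurons was Impact, Peg3, Gnas, Snrpn, Ndn, Nnat, Dlk1, Zdbf2, Grb10 and Asb4. Exons were taken as the union over all transcripts of the gene, which understates the level of genes with long rare transcripts. Impact had 314 ± 51.8 RPM per kb in cold-sensitive neurons and 207 ± 10.9 RPM per kb in cold-insensitive neurons (SD, n = 3 each). Impact, Peg3 and Gnas stood apart from their neighbours beyond their spread in both types, except that Gnas and Snrpn lay within it. Snrpn and Ndn lay within their spread in both types. In cold-sensitive neurons the same held for Nnat, Dlk1 and Zdbf2 (60.3, 58.1 and 53.8 RPM per kb), for Zdbf2 and Grb10, and for Grb10 and Asb4. In cold-insensitive neurons it held for Grb10 and Dlk1 and for Dlk1 and Asb4. Dlk1 had 58.1 ± 14.3 RPM per kb in cold-sensitive neurons, above 93.8% of genes in these pools, and 18.5 ± 8.19 RPM per kb in cold-insensitive neurons, above 73.2% of genes there. Asb4 came last in both types, with 32.9 ± 19.9 RPM per kb in cold-sensitive neurons (above 86.8% of genes) and 9.72 ± 4.03 RPM per kb in cold-insensitive neurons (above 52.3%). The other 8 genes lay above at least 80.9% of genes in either type, the lowest of them being Grb10 in cold-insensitive neurons.

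**Figure D3:**
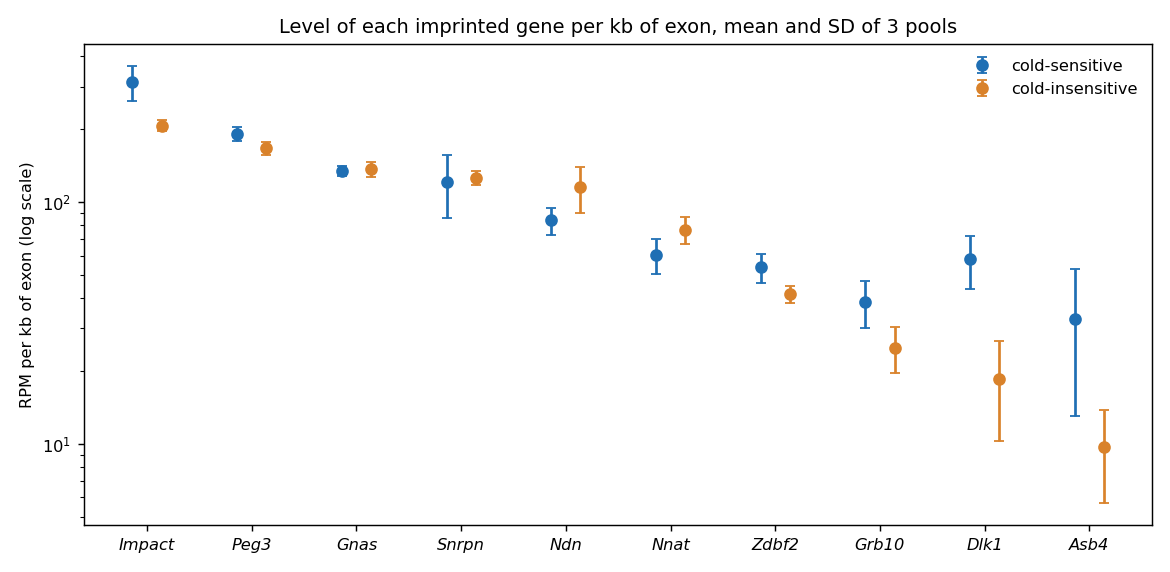
Level of each imprinted gene in RPM per kb of exon on a log axis, with cold-sensitive pools in blue to the left of cold-insensitive pools in orange. Points are means and bars the SD of 3 pools. Genes are ordered by the level in cold-insensitive neurons, where Asb4 (9.72) and Dlk1 (18.5) are lowest; in cold-sensitive neurons Dlk1 (58.1) is close to Nnat (60.3).

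Other imprinted genes were compared by the same fit over all genes. Of 45 further imprinted genes listed by their known allele and domain, 28 were in the table. Plagl1 was called higher, 0 were called lower, and 8 had an unadjusted p under 0.05 (edgeR's quasi-likelihood test), beside 0.334%, 0.835% and 10.7% of all genes. Their median log2 fold change was 0.36 and 19 of 28 were above 0, against 0.00 and 4800 of 9583 over all genes. The 13 genes listed as paternally expressed had a median of 0.49 with 11 above 0. They include Ddc, whose imprinting is known from the heart, and Inpp5f, of which a single isoform is imprinted. The 15 listed as maternally expressed had a median of 0.32 with 8 above 0. This class is mixed, since Nap1l4, Tssc4 and Cd81 are imprinted in the placenta, Igf2r outside neurons, Ppp1r9a in some tissues and H13 by isoform, and others are only biased to the maternal copy. In 11 of the 28 genes the types did not overlap with cold-sensitive pools higher, beside 7.84% of all genes. Cd81, a tetraspanin, was the one gene with every cold-sensitive pool lower, beside 8.18% of all genes (log2 fold change -0.55, adjusted p = 0.415).

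Plagl1, a paternally expressed zinc finger gene known to regulate other imprinted genes in mice, had 345, 514 and 416 RPM in cold-sensitive pools, against 110, 203 and 273 RPM in cold-insensitive pools. The types did not overlap (log2 fold change 1.12, SE 0.27, adjusted p = 0.0385 by edgeR's quasi-likelihood test). It was kept in 11 of 15 alternative fits and lost in 4, all in the same direction. Leaving out cold-sensitive replicate 2 gave 0.97 with an adjusted p of 0.174, and leaving out replicate 3 of that type gave 1.13 with 0.0962. Leaving out cold-insensitive replicate 1 gave 0.84 with an adjusted p of 0.168, and leaving out replicate 2 gave 1.15 with 0.192. Mest, a paternally expressed hydrolase-like gene, had 148, 170 and 164 RPM in cold-sensitive pools, against 70.1, 104 and 75.2 RPM in cold-insensitive pools, without overlap. Mest was not called by edgeR (0.95, SE 0.28, adjusted p = 0.11) and was called by DESeq2 (0.96, adjusted p = 0.0245), which is why it is named here. Its exons overlap Copg2 on the opposite strand. Kcnk9, a maternally expressed potassium leak channel gene, and Mcts2, a paternally expressed retrogene, had log2 fold changes of 1.05 (SE 0.64, adjusted p = 0.614) and 1.03 (SE 0.73, adjusted p = 0.682) at low levels, and neither was called.

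**Figure D4:**
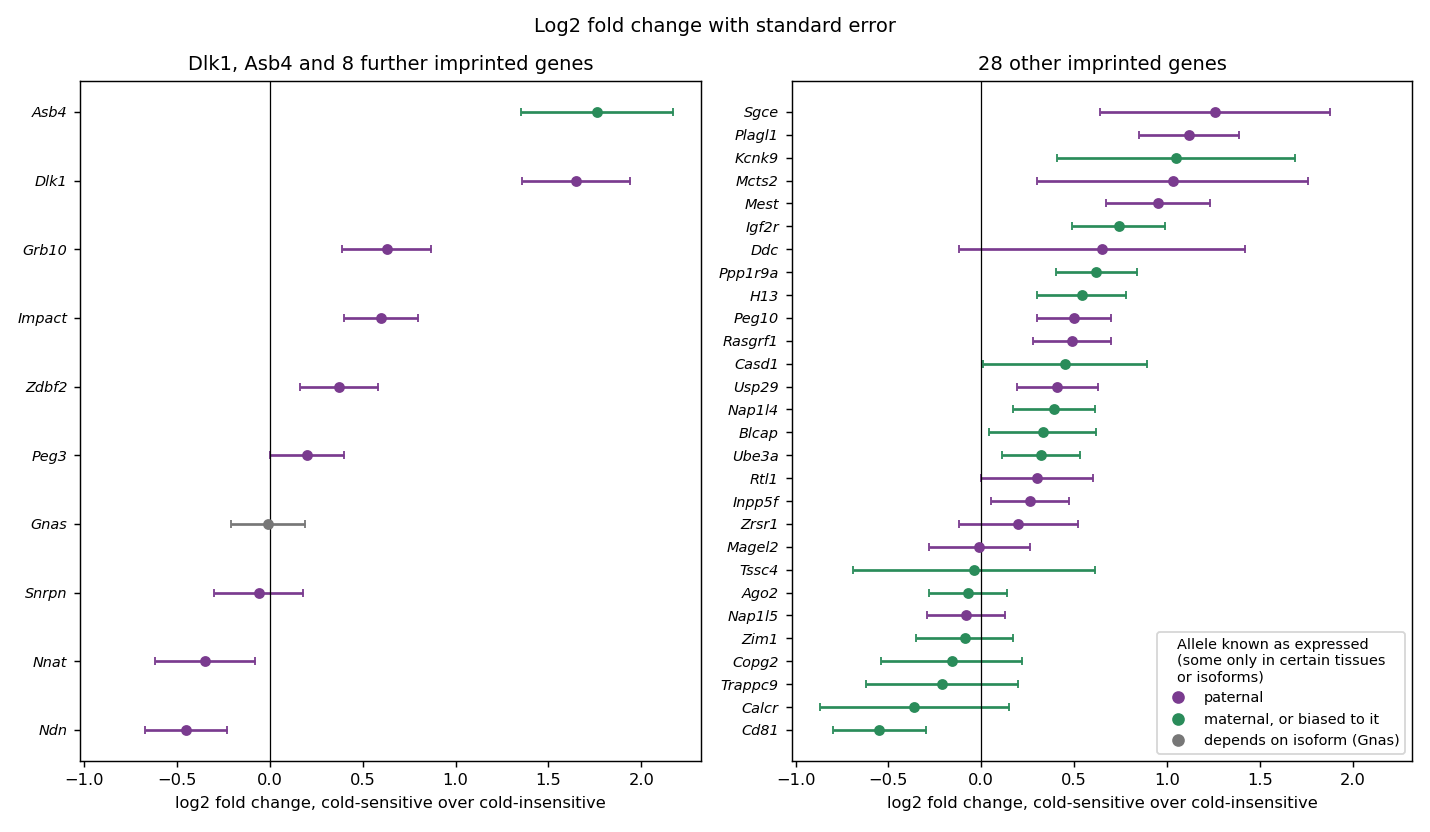
Log2 fold change of cold-sensitive over cold-insensitive neurons with its standard error, for the 10 imprinted genes (left) and 28 other imprinted genes in the table (right), coloured by the parental copy known as expressed, for some genes in certain tissues or isoforms alone. Dlk1 (1.65) and Asb4 (1.76) stand apart on the left, and Sgce (1.26) and Plagl1 (1.12) lead on the right, where Plagl1 alone was called.

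Of 12 other imprinted genes that share a domain with one of the 10, 0 were called by edgeR's quasi-likelihood test, DESeq2 or limma, and 2 had an unadjusted p under 0.05. Beside Dlk1, Rtl1, a paternally expressed retrotransposon-derived gene, had 110, 145 and 84.2 RPM in cold-sensitive pools, against 87.5, 77.7 and 109 RPM in cold-insensitive pools. Rtl1 overlapped between the types (log2 fold change 0.30, SE 0.30, adjusted p = 0.821). The other genes of the table within 500 kb of Dlk1 were Begain and Wdr25, with log2 fold changes of 0.07 and -0.29. Within 500 kb of any of the 10 genes lay 41 genes of the table, of which 0 were called by edgeR's quasi-likelihood test, DESeq2 or limma and 2 had an unadjusted p under 0.05. Over all genes edgeR called 0.334% higher and 0.835% lower, and 10.7% had an unadjusted p under 0.05. At such shares, 0 calls among 12 or 41 genes is not read as a result about them.

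In the domain of Asb4, Peg10, a paternally expressed retrotransposon-derived gene, had 2141, 2623 and 2776 RPM in cold-sensitive pools, against 1817, 1665 and 1834 RPM in cold-insensitive pools. Peg10 did not overlap between the types and was not called (log2 fold change 0.50, SE 0.20, adjusted p = 0.322). Ppp1r9a, an actin-binding scaffold gene with maternal expression in some tissues, likewise did not overlap, with 288, 404 and 349 RPM in cold-sensitive pools, against 251, 206 and 218 RPM in cold-insensitive pools (0.62, SE 0.22, adjusted p = 0.248). Sgce, the paternally expressed epsilon-sarcoglycan gene, had 46.3, 35 and 24.2 RPM in cold-sensitive pools, against 26, 11.6 and 6.26 RPM in cold-insensitive pools. Its order over the pools within each type was that of Mbp, and it was not called (1.26, SE 0.62, adjusted p = 0.471). Casd1 (0.45, adjusted p = 0.812) and the calcitonin receptor gene Calcr (-0.36, adjusted p = 0.892) overlapped between the types.

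Around Peg3, the paternally expressed deubiquitinase gene Usp29 had a log2 fold change of 0.41 (SE 0.22, adjusted p = 0.522) and the maternally expressed Zim1 one of -0.09 (adjusted p = 0.955). In the Prader-Willi region, Magel2, a MAGE gene next to Ndn, had 173, 128 and 135 RPM in cold-sensitive pools, against 107, 149 and 182 RPM in cold-insensitive pools. Magel2 was highest in cold-sensitive replicate 1 and cold-insensitive replicate 3 and overlapped between the types (log2 fold change -0.01, adjusted p = 0.997). Ube3a, a ubiquitin ligase gene of the same region that neurons express from the maternal copy, had 589, 809 and 622 RPM in cold-sensitive pools, against 505, 546 and 566 RPM in cold-insensitive pools (0.32, adjusted p = 0.648). Blcap, which contains Nnat, had a log2 fold change of 0.33 (adjusted p = 0.781), and Ddc, the neighbour of Grb10, one of 0.65 (SE 0.77, adjusted p = 0.856).

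**Figure D5:**
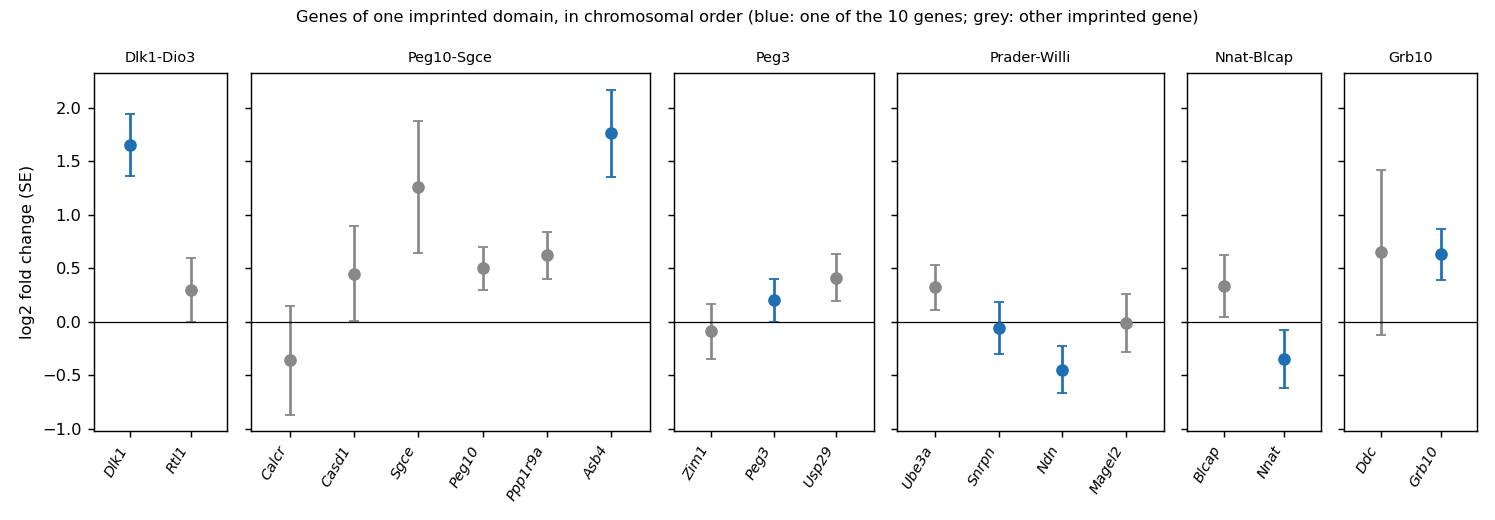
Log2 fold change of cold-sensitive over cold-insensitive neurons with its standard error for imprinted genes of 6 domains, in chromosomal order within each panel but not to scale. Blue points are genes of the 10 and grey points other imprinted genes. Dlk1 (1.65) lies above Rtl1 (0.30), and Asb4 (1.76) above Ppp1r9a (0.62) and Peg10 (0.50).

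Genes of the pathways in which the 10 genes act were counted by edgeR's quasi-likelihood test. It called 0.334% of all genes higher and 0.835% lower, and 10.7% had an unadjusted p under 0.05. For Dlk1, 18 of 33 Notch pathway genes were in the table, with 0 called, 0 at an unadjusted p under 0.05 and a median log2 fold change of -0.07. Mib1, the ligase that activates Notch ligands, had the highest RPM of them and a log2 fold change of -0.12 (adjusted p = 0.93). The receptor genes Notch1, Notch2, Notch3 and Notch4 were not in the table, nor were Dll1, Hes1 and Hes5. The Notch counts therefore do not cover these genes. For Asb4, 11 of 23 ASB and cullin-5 ligase genes were in the table, with 0 called, 1 at an unadjusted p under 0.05 and a median of 0.06. Arih2, a ligase that works with cullin-5, had a log2 fold change of 0.12. The gene with the unadjusted p was Cul5, the cullin scaffold on which ASB proteins assemble. Cul5 had 247, 200 and 227 RPM in cold-sensitive pools, against 130, 127 and 80.8 RPM in cold-insensitive pools. Its types did not overlap and its adjusted p was just above the threshold (log2 fold change 1.00, SE 0.26, adjusted p = 0.0624). Cul5 was called by DESeq2 (adjusted p = 0.0139), by limma with a pseudocount of 1 (adjusted p = 0.0475) and by edgeR with the replicate as a block (1.02, adjusted p = 0.0357).

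For Ndn, 7 of 7 MAGE genes were in the table, with 0 called, 1 at an unadjusted p under 0.05 and a median of 0.28. Maged1, with the highest RPM of them, had a log2 fold change of 0.02 (adjusted p = 0.985), and Magee1 one of 0.51 (adjusted p = 0.447). For Snrpn, 6 of 7 Sm core genes were in the table, with 0 called, 1 at an unadjusted p under 0.05 and a median of -0.33. Snrpd3 and Snrpb, which encode Sm core proteins, had log2 fold changes of -0.02 and -0.26. For Grb10, 10 of 12 insulin and IGF receptor adaptor genes were in the table, with 0 called, 2 at an unadjusted p under 0.05 and a median of -0.09. Irs4, an insulin receptor substrate of the hypothalamus, had 94, 161 and 193 RPM in cold-sensitive pools, against 251, 262 and 233 RPM in cold-insensitive pools. Its types did not overlap and it was not called (log2 fold change -0.73, adjusted p = 0.249). Irs2, a further substrate, had a log2 fold change of -0.30 (adjusted p = 0.752). Pik3r1, a regulatory subunit of PI3-kinase, was not called with all 6 libraries. It was called lower by edgeR without cold-sensitive replicate 1 (-1.33, adjusted p = 0.0494) or cold-insensitive replicate 3 (-1.37, adjusted p = 0.0345), and in no other alternative fit.

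For Impact, 14 of 15 genes of GCN2 and its target eIF2 were in the table, with 0 called, 2 at an unadjusted p under 0.05 and a median of -0.11. Atf4, the transcription factor translated when eIF2 is phosphorylated, had a log2 fold change of -0.00 (adjusted p = 0.999), and Ppp1r15a, which reverses that phosphorylation, one of -0.40 (adjusted p = 0.543). Of 19 genes that maintain imprints or methylate DNA, 15 were in the table, with 0 called, 3 at an unadjusted p under 0.05 and a median of 0.21. Arid4b, a chromatin protein, and Tet3, which oxidizes methylated cytosine, had the highest RPM and log2 fold changes of 0.25 and -0.13. For these lists together, DESeq2, limma with a pseudocount of 1 and the block on replicates each called 1 gene higher, which was Cul5, and limma with a pseudocount of 0.5 called 0.

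The genes whose profile over the 6 pools lay closest to that of Dlk1 were Sh3bgrl2, Shb and Zfp385b, with root mean square differences of 0.18, 0.21 and 0.24 in centred log2 RPM. All had much lower counts than Dlk1, and Sh3bgrl2 had 2.94 to 18.1 RPM over the pools. For Asb4 they were Sepsecs, Cxcl14 and Ap3s1, with differences of 0.27, 0.35 and 0.37. Cxcl14, a chemokine gene, had 16.7, 25.2 and 78.3 RPM in cold-sensitive pools, against 10.6, 7.33 and 7.83 RPM in cold-insensitive pools, and shared with Asb4 its peak in cold-sensitive replicate 3. The 6 genes were chosen for this likeness, and their values are a description over pools that the types already separate.

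The cold-insensitive pools differed from the cold-sensitive ones in genes of other neurons and of precursor cells. Sst, the somatostatin gene, had 2.01, 2.15 and 1.79 RPM in cold-sensitive pools, against 856, 501 and 320 RPM in cold-insensitive pools, and was called lower (log2 fold change -8.15, adjusted p = 5.97e-13 by edgeR's quasi-likelihood test). Pdgfra, a marker of oligodendrocyte precursors and the one of 6 in the table, had 7.76, 7.68 and 19.9 RPM in cold-sensitive pools, against 358, 364 and 336 RPM in cold-insensitive pools (-4.85, adjusted p = 1.55e-09). Of 19 hypothalamic peptide genes 8 were in the table, and Adcyap1 was called higher (2.10, adjusted p = 0.00652) and Gal lower (-1.35, adjusted p = 0.0349), while Nts was not called (0.78, adjusted p = 0.249). Foxj1 was the one of 5 markers of ependyma in the table, with 1.36 to 22.3 RPM over the pools. The part of these differences in the values of the imprinted genes was not tested.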

How the data were processed

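Per the labels and the study's methods, reads of 6 pools were trimmed with Trimmomatic 0.36, aligned with STAR 2.5.4b to GRCm38.p6 and assigned to protein-coding genes by featureCounts (Subread 1.6.2), which ignored strand. Deposited were the authors' raw counts and a normalized signal, the counts scaled to the effective library size (RPM). Its lowest count is 4 and its lowest RPM 1.01. The authors' columns of mean, fold change, direction and p-value were not used.

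The raw counts were fitted here in R 4.3.3 with edgeR 4.0.16 (TMM scaling, quasi-likelihood test, type of neuron as the only term, prior count 0.125, adjusted p at most 0.05 over 9583 genes), after tests on simulated data. The SE of an edgeR fit was the absolute log2 fold change over the square root of its F statistic. The common biological coefficient of variation was 42.2%. Depths of 3316441 to 6818554 counts limit the precision of low genes. Coordinates and exon lengths came from GENCODE on GRCm38, with 9483 genes matched by symbol, and promoter windows from RefSeq. The methods describe neurons of each type as pooled within a biological replicate, and the replicate numbers were assumed to pair the pools, which the labels do not state. Deviations from the means of the types correlated at 0.0446 to 0.0586 between pools of the same number, and at -0.0409 to -0.00724 between pools of different numbers. The alternatives were other scalings, DESeq2 1.42.0, limma 3.58.1 on log2(RPM + 1) and log2(RPM + 0.5), a filter of 5 RPM in 3 pools, robust dispersion, the replicate as a block, and each pool left out.

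The members and lists were chosen with earlier results of these data known. Named genes were the 10 members, other imprinted genes of their domains or called or among the 4 largest fold changes, the called and the 2 most abundant genes of each list, the 3 closest profiles to Dlk1 and Asb4, and the genes next to them in rank. Pik3r1, Mest, Gm38393, Cd81, Begain and Wdr25 were added after their values were seen. Some listed genes are not reported here.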

Additional observations from a re-analysis of the deposited data

How the results depend on the processing

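Of the 10 imprinted genes, 8 kept their direction in all 15 alternative fits, and Snrpn and Gnas, both near 0, did in 13 each. Over all genes, DESeq2 called 78 higher and 146 lower, against 32 and 80, and leaving out each pool in turn gave 8 to 29 higher and 20 to 63 lower. Among the other imprinted genes DESeq2 called 2 higher, Plagl1 and Mest, and leaving out each pool gave 0 to 1 higher and 0 lower. In the pathway lists DESeq2 called 1 higher, limma with a pseudocount of 1 called 1, and the replicate block called 1, Cul5 each time. Leaving out each pool gave 0 higher and 0 to 1 lower there. The block on replicates, which assumes that the numbers pair the pools, gave log2 fold changes of 1.65 for Asb4 and 1.72 for Dlk1. It changed no call among the 28 other imprinted genes, but Asb4 fell short of the threshold with it. Of the 15 alternative fits, Asb4 passed the threshold in 10 and Dlk1 in 15, a description since this comparison selected both. The cause of these moves was not tested. With 3 pools per type, an exact permutation test of a single gene cannot go below p = 0.1.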
